A study of Mus musculus with 12 samples.

Results

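Genes of the proteasome were taken from the arrays by gene symbol. Every symbol that starts with Psma, Psmb, Psmc, Psmd, Psme, Psmf or Psmg and a digit was included. Beside constitutive subunits, these symbols take in activators and assembly chaperones. Psme1 and Psme2, which encode the activator PA28 that is added under interferon, stayed in the set. Psmb8, Psmb9 and Psmb10, which encode the interferon-inducible catalytic subunits of the immunoproteasome, were left out and are used below as a comparison. Only probes detected at p under 0.01 on 4 or more of the 12 arrays were kept. Of 81 probes for 46 genes, 59 probes for 38 genes passed, out of 17188 kept probes and 10031 genes in all. Psma1, Psma3, Psma6, Psma8, Psmb11, Psmc6, Psmd3 and Psmg4 had no kept probe and are not analysed here. The 38 genes hold 36 proteasome genes and Psmc3ip and Psme3ip1, whose products bind or act beside proteasome proteins but are not subunits. Of the 38 genes, 15 had more than 1 kept probe, and the brightest of these by mean log2 signal stands for the gene unless another probe is named.

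Striatal RNA of BACHD mice was hybridized. The strain holds the human disease gene, mutant huntingtin, on a bacterial artificial chromosome whose huntingtin flanking sequence drives it. All 3 groups carried this transgene, and all mice were 5 months old. The methods of the study describe a single injection into the striatum, and a figure legend describes the mice as male. The study does not state the time after injection at which the array RNA was taken. The PBS group received vehicle. The wig-1 ASO group received an antisense oligonucleotide, a short modified DNA gapmer that directs cleavage of a matching RNA, against Zmat3, the mouse gene of the p53 target wig-1. The control ASO group received an oligonucleotide of the same chemistry with no known target. Each group had 4 arrays. The comparison of wig-1 ASO with PBS joins the lowering of wig-1 with any effect of an oligonucleotide as such, and cannot tell them apart. The comparison with control ASO keeps the chemistry the same. No group without the transgene was analysed here, so that every value below is from tissue that expresses mutant huntingtin.

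The 26S proteasome is a barrel of stacked rings, the core particle, capped by a regulatory particle. The core has outer rings of alpha subunits, which gate the pore, and inner rings of beta subunits, of which those encoded by Psmb5, Psmb6 and Psmb7 cut peptide bonds. The base of the regulatory particle unfolds substrates with a ring of ATPases, the Psmc proteins, and the lid holds the deubiquitinase Psmd14, which removes the ubiquitin chain. Inclusions of mutant huntingtin are ubiquitin-positive, and proteasome capacity in striatal neurons has long been examined in Huntington's disease for that reason. Under interferon, cells replace the 3 catalytic subunits with those encoded by Psmb8, Psmb9 and Psmb10 and add the activator PA28, made of the products of Psme1 and Psme2.

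The promoters are shown because transcription of the subunit genes is known to be coordinated in mammals by the factor Nfe2l1, which binds antioxidant response elements. Windows of 250 bases before to 50 after the gene start were at hand from RefSeq (GRCm38.p6) for 32 of the 38 genes, 35 windows in all. The core of that element, TGACNNNGC on either strand, was in 5 of the 35 windows, those of Psmb5, Psmb6, Psmd9, Psmd12 and Psme4, or 14.3%, beside 12.4% of all 32851 windows. The 2 with a catalytic subunit are given with the match in capitals. The ETS site CCGGAAG, on either strand, was in 15 of the 35 windows, or 42.9%, beside 8.86% of all windows. Of the 14 genes with it, Psmc1 and Psme3 are shown, an ATPase and an activator described in the comparison of control ASO with PBS. Psmd14, the deubiquitinase of the lid, is shown with its nuclear respiratory factor site in capitals, a motif in 17.1% of these windows and 4.6% of all. Psmb8 is shown as the induced counterpart of Psmb5, with a gamma-activated site, TTCNNNGAA, in capitals. That motif was in 5.71% of these windows and 8.3% of all. Each line gives the 100 bases at the stated place, 5′ to 3′ on the strand of the gene.
Psmb5 (chr14:54617996-54618095, minus strand): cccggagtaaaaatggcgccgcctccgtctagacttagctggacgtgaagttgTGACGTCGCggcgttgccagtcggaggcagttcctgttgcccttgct
Psmb6 (chr11:70525257-70525356, plus strand): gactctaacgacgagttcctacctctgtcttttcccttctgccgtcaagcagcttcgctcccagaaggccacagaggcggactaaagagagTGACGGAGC
Psmc1 (chr12:100110102-100110201, plus strand): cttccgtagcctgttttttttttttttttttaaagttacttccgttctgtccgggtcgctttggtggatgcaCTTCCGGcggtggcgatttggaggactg
Psme3 (chr11:101316096-101316195, plus strand): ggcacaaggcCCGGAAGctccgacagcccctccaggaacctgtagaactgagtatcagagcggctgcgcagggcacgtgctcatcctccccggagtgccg
Psmd14 (chr2:61711594-61711693, plus strand): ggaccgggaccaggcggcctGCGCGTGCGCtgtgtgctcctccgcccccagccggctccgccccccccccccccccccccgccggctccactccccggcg
Psmb8 (chr17:34198095-34198194, plus strand): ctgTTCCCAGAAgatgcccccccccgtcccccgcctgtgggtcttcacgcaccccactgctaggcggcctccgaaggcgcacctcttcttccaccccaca

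An interferon-stimulated response element core, GAAA followed after any 2 bases by a second GAAA on either strand, was in 4 of the 35 windows, or 11.4%, beside 3.44% of all windows. These were the windows of Psmb3, Psmd4, Psmd9 and Psme1. In Psme1 the match lies just after the gene start, in transcribed sequence, and is not printed. Altogether 9 patterns were searched. The rest were the CCAAT box, the Sp1 site GGGCGG and 2 forms of the yeast proteasome element, in 31.4%, 60%, 31.4% and 0% of these windows beside 37.4%, 35.7%, 21.7% and 0.219% of all. These matches describe the letters of the windows and carry no evidence of binding.

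The targeted transcript was lower in every wig-1 ASO array. Zmat3 had log2 signals of 8.57, 8.60, 8.37 and 8.44 with PBS, 6.89, 6.63, 6.77 and 5.95 with wig-1 ASO, and 8.48, 8.47, 8.53 and 8.31 with control ASO. The mean fell to 26.2% of the PBS level (log2 change -1.93, SE 0.18, limma adjusted p = 0.000842). Wig-1 ASO replicate 1, with the highest Zmat3 signal of its group, also had the fewest detected probes, 15228 beside up to 17198 on the other arrays. Over all kept probes, 577 of 17188, or 3.36%, passed an adjusted p under 0.05 in wig-1 ASO against PBS, 0.943% did in wig-1 ASO against control ASO, and 0% did in control ASO against PBS.

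With the main limma settings, 0 of the 59 proteasome probes were called at the 0.05 limit in any comparison. Calls were rare among all kept probes as well. Their shares were 3.36% in wig-1 ASO against PBS, 0.943% against control ASO and 0% in control ASO against PBS. The 0 of 59 thus lies near the background, and a missing call does not show a lack of change. Both probes of Psme1 passed with another prior, as given below. In wig-1 ASO against PBS the lowest adjusted p among the 59 was 0.102 (limma). SAM, the test named by the study, selected 0 of the 59 at a false discovery rate of 0.1. The share of all probes that SAM selected is not given here, so that this 0 cannot be set against it. At an unadjusted limma p under 0.05, 2 of the 59 were higher and 1 lower in wig-1 ASO against PBS. Over all 17188 kept probes 1546 were higher and 1544 lower. In wig-1 ASO against control ASO 1 was higher, beside 1231 higher and 1155 lower of all. In control ASO against PBS 1 was lower, beside 555 higher and 620 lower of all. The share of the 59 was below that of all probes in each comparison. The 4 arrays did not overlap with PBS for 3 probes that were higher with wig-1 ASO, 2 of Psme1 and 1 of Psmb2, and for 2 that were lower, both of Psmd14. Over all kept probes 5.56% were higher and 4.51% lower without overlap, so that 3 and 2 of 59 lie near the background. In wig-1 ASO against control ASO no proteasome probe was free of overlap in either direction, beside 4.14% higher and 4.6% lower of all probes. In control ASO against PBS 2 were higher, Psmc1 and Psmd12, beside 2.32% of all probes, and none was lower, beside 2.5%.

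The changes were small. The median log2 change over the 38 genes was 0.05 for wig-1 ASO against PBS, 0.03 for wig-1 ASO against control ASO and 0.03 for control ASO against PBS, where all kept probes had medians of -0.02, -0.02 and 0.00. In wig-1 ASO against PBS 28 genes were above 0 and 10 below, beside 4824 and 5207 of all genes. In wig-1 ASO against control ASO they were 23 and 15, beside 4795 and 5236. In control ASO against PBS they were 24 and 14, beside 5163 and 4868. The changes in wig-1 ASO against PBS ran from -0.26 for Psmd14 to 0.64 for Psmd2. The 95% limma interval of the change lay wholly inside a 1.5-fold change in either direction for 32 of the 38 genes, or 84.2%, compared with 56.5% of all genes. The 6 exceptions were Psmd2, Psmd5, Psmd6, Psmd9, Psme1 and Psmg3. Against control ASO the interval lay inside for 33 of the 38 genes, and in control ASO against PBS for 33. The residual SD between arrays of 1 group had a median of 0.13 on the log2 scale over the 38 genes and 0.22 over all genes. The probes of the 38 genes were also brighter, with a median log2 signal of 8.71 beside 6.12 over all genes, and bright probes on arrays vary less, so that the share of narrow intervals was not tested apart from brightness.

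**Figure D1:**
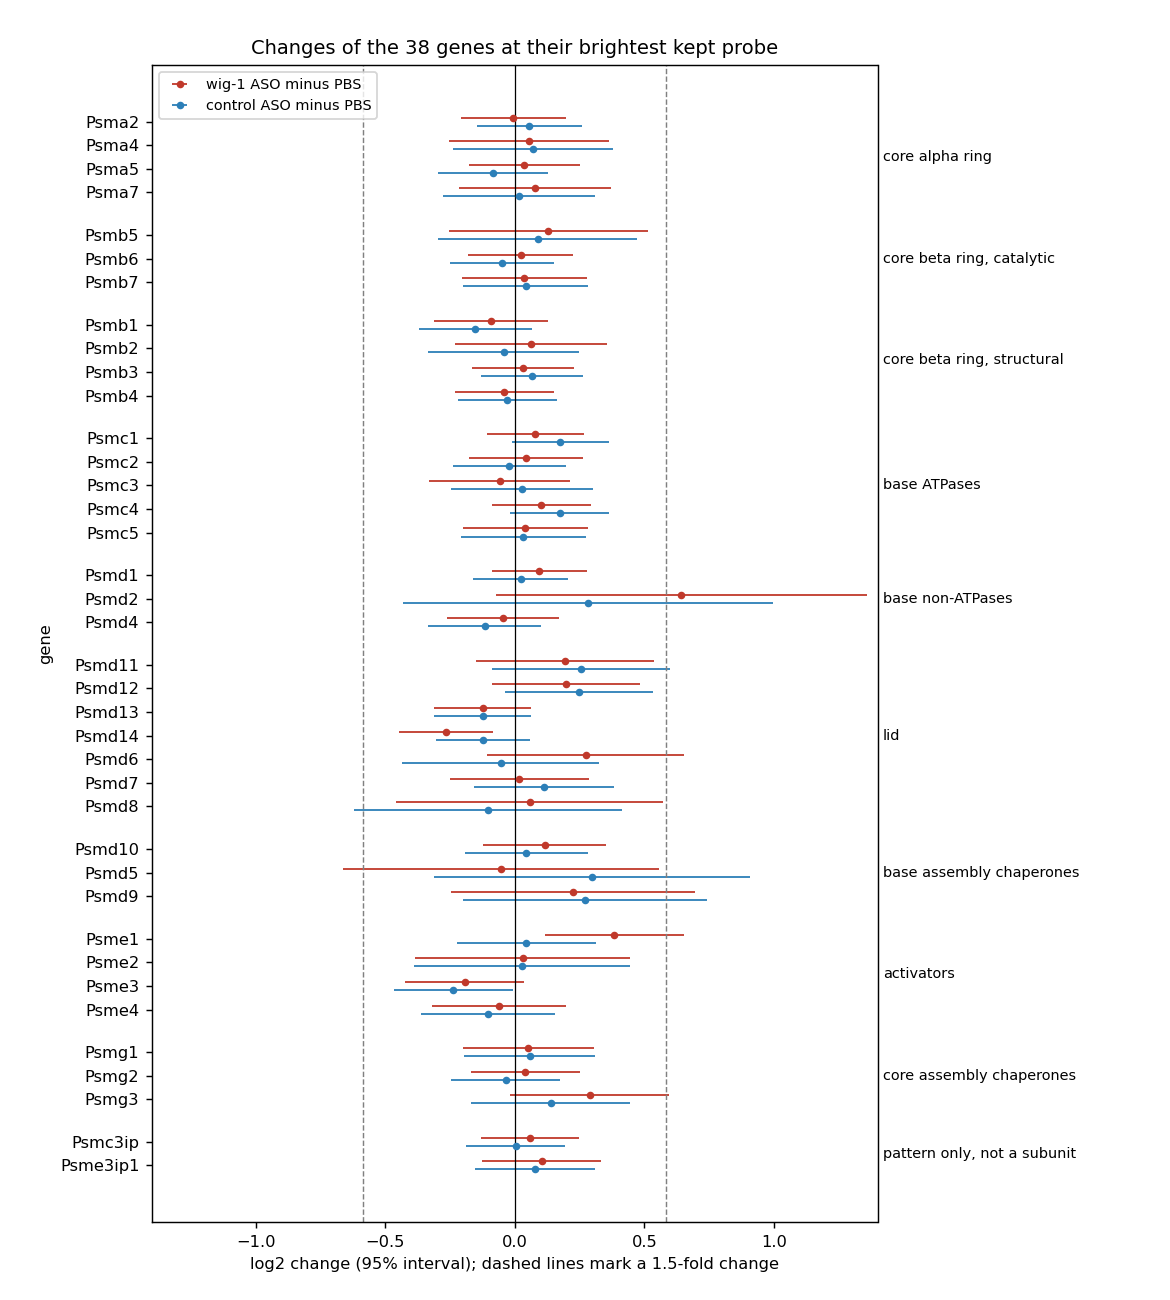
Log2 change with its 95% limma interval (horizontal axis) for each of the 38 genes (vertical axis), grouped by role, in wig-1 ASO minus PBS (red) and control ASO minus PBS (blue), 4 arrays a group. Most intervals cross 0 and stay between the dashed lines at a 1.5-fold change. Psme1 and Psmd14 are the only genes whose red interval leaves out 0, and neither passed the adjusted threshold.

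The alpha ring of the core, which frames and gates the pore, was measured through 4 genes. None was called, and the median log2 change of Psma2, Psma4, Psma5 and Psma7 in wig-1 ASO against PBS was 0.05. The smallest adjusted p was that of Psma7, whose log2 signals were 8.78, 9.03, 9.16 and 8.79 with PBS, 8.94, 8.98, 9.0 and 9.15 with wig-1 ASO, and 8.75, 8.81, 8.97 and 9.29 with control ASO. The groups overlapped throughout, and the change of 0.08 (SE 0.13, adjusted p = 0.817 from limma) was smaller than the PBS SD of 0.19. Its second probe gave 0.00.

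The 3 catalytic beta genes were not called either. Psmb5, which encodes the chymotrypsin-like subunit, had log2 signals of 7.03, 6.96, 6.99 and 7.33 with PBS, 7.10, 7.11, 7.52 and 7.10 with wig-1 ASO, and 6.71, 7.07, 7.43 and 7.46 with control ASO. A single array was high in the PBS group and in the wig-1 ASO group, and the control ASO arrays overlapped with both, with wig-1 ASO replicate 3 the highest of the 12. The change from PBS was 0.13 (SE 0.18, 95% interval -0.25 to 0.51, adjusted p = 0.760 from limma).
Psmb6, which encodes the caspase-like subunit, had log2 signals of 9.99, 10.12, 10.24 and 10.02 with PBS, 9.98, 10.15, 10.12 and 10.20 with wig-1 ASO, and 9.96, 10.05, 10.03 and 10.13 with control ASO. Its change was 0.02 (SE 0.09, 95% interval -0.18 to 0.22, adjusted p = 0.936 from limma), with full overlap.
Psmb7, which encodes the trypsin-like subunit, had log2 signals of 9.82, 10.13, 10.28 and 9.96 with PBS, 9.95, 10.11, 10.14 and 10.14 with wig-1 ASO, and 9.998, 10.16, 10.08 and 10.12 with control ASO. The PBS arrays alone spanned the values of both other groups. Its change was 0.04 (SE 0.11, 95% interval -0.20 to 0.28, adjusted p = 0.906 from limma), and its 4 kept probes gave 0.01 to 0.11. The directions of Psmb6 and Psmb7 turned below 0 when single arrays were left out.

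Among the beta subunits without a catalytic site, Psmb1 had the smallest adjusted p. It was at 9.89 ± 0.18 (SD, n = 4) with PBS, 9.80 ± 0.06 with wig-1 ASO and 9.74 ± 0.03 with control ASO, a log2 change of -0.09 (adjusted p = 0.694 from limma) for wig-1 ASO against PBS. Psmb3 and Psmb4 changed by 0.03 and -0.04. The dimmer of the 2 kept probes of Psmb2 (ILMN_2949632) was the exception to the overlap. Its log2 signals were 8.42, 8.43, 8.47 and 8.46 with PBS, 8.61, 8.58, 8.59 and 8.59 with wig-1 ASO, and 8.45, 8.38, 8.49 and 8.68 with control ASO. All wig-1 ASO arrays lay above all PBS arrays within a narrow band, and 1 control ASO array lay above both. The log2 change from PBS was 0.15 (adjusted p = 0.391 from limma). The brighter probe of the same gene overlapped, with a change of 0.06.

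The base of the regulatory particle carried no call either. The 5 ATPase genes measured, Psmc1 to Psmc5, had a median log2 change of 0.04 in wig-1 ASO against PBS, and the smallest adjusted p was that of Psmc4, an ATPase subunit, at 0.10 (SE 0.09, adjusted p = 0.593 from limma). Psmc4 was at 9.16 ± 0.10 (SD, n = 4) with PBS, 9.26 ± 0.06 with wig-1 ASO and 9.33 ± 0.07 with control ASO, so that the control oligonucleotide was the farther from PBS. Psmc1, another ATPase, showed the same order. Its log2 signals were 8.80, 8.84, 8.66 and 8.73 with PBS, 8.92, 8.72, 8.87 and 8.84 with wig-1 ASO, and 8.91, 8.94, 9.02 and 8.86 with control ASO. Every control ASO array was above every PBS array, while the wig-1 ASO arrays overlapped with both. Control ASO minus PBS was 0.18 (adjusted p = 0.732 from limma).

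Of the base scaffold genes, Psmd1, the large scaffold subunit, changed by 0.09 (SE 0.08, adjusted p = 0.615 from limma), and 1 of its 3 kept probes had the opposite sign, -0.12. Psmd4, a ubiquitin receptor of the base, changed by -0.04. Psmd2, the second large scaffold, had the widest change, 0.64 (SE 0.33, adjusted p = 0.332 from limma), on a probe close to background. Its log2 signals were 3.15, 2.52, 3.97 and 2.67 with PBS, 3.42, 4.20, 3.28 and 3.98 with wig-1 ASO, and 3.14, 3.70, 2.93 and 3.68 with control ASO, with detection on 2 of the 4 PBS arrays and on all arrays of the other groups. With 16 added to every signal the change was 0.24, below the 0.37 of Psme1 on that scale. The groups overlapped, and the residual SD of 0.51 was the largest among the 38 genes.

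The lid held the lowest adjusted p among the 38 genes at their brightest probes in wig-1 ASO against PBS. Psmd14, the deubiquitinase that clears the ubiquitin chain from a substrate before it enters the core, had log2 signals of 7.84, 7.86, 7.94 and 7.83 with PBS, 7.56, 7.58, 7.66 and 7.61 with wig-1 ASO, and 7.66, 7.88, 7.73 and 7.70 with control ASO (probe ILMN_2933914). All wig-1 ASO arrays lay below all PBS arrays, and the control ASO arrays lay between and touched both. The wig-1 ASO mean stood at 83.2% of the PBS level (log2 change -0.26, SE 0.08, 95% interval -0.45 to -0.08, adjusted p = 0.115 from limma, exact permutation p = 0.0286, the smallest that 4 arrays against 4 allow). The second probe (ILMN_2771815) had log2 signals of 7.12, 7.22, 7.23 and 7.06 with PBS, 6.94, 7.0, 6.96 and 6.99 with wig-1 ASO, and 6.85, 7.17, 7.18 and 6.87 with control ASO. It was again without overlap between wig-1 ASO and PBS, at -0.19 (SE 0.10, adjusted p = 0.370 from limma), while control ASO held both the lowest values and values as high as PBS. Against control ASO the 2 probes gave -0.14 (adjusted p = 0.499) and -0.05 (adjusted p = 0.888 from limma). Neither comparison passed the threshold.

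Of the other lid genes, Psmd12 changed by 0.20 (SE 0.13, adjusted p = 0.471 from limma), and its second, dim probe had the opposite sign, -0.04. Its log2 signals were 7.83, 7.98, 8.05 and 7.59 with PBS, 7.74, 8.08, 8.25 and 8.17 with wig-1 ASO, and 8.08, 8.09, 8.11 and 8.16 with control ASO. The control ASO arrays were tightly placed above all PBS arrays (0.25, adjusted p = 0.750 from limma). The wig-1 ASO arrays overlapped with both. The 3 kept probes of Psmd7 gave 0.02, -0.12 and -0.32, the last on a probe with log2 signals of 3.84 to 5.10, so that its direction depended on the probe. Psmd13 was at -0.12 in both comparisons with PBS, and Psmd6, Psmd8 and Psmd11 at 0.27, 0.06 and 0.19 in wig-1 ASO against PBS.

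**Figure D2:**
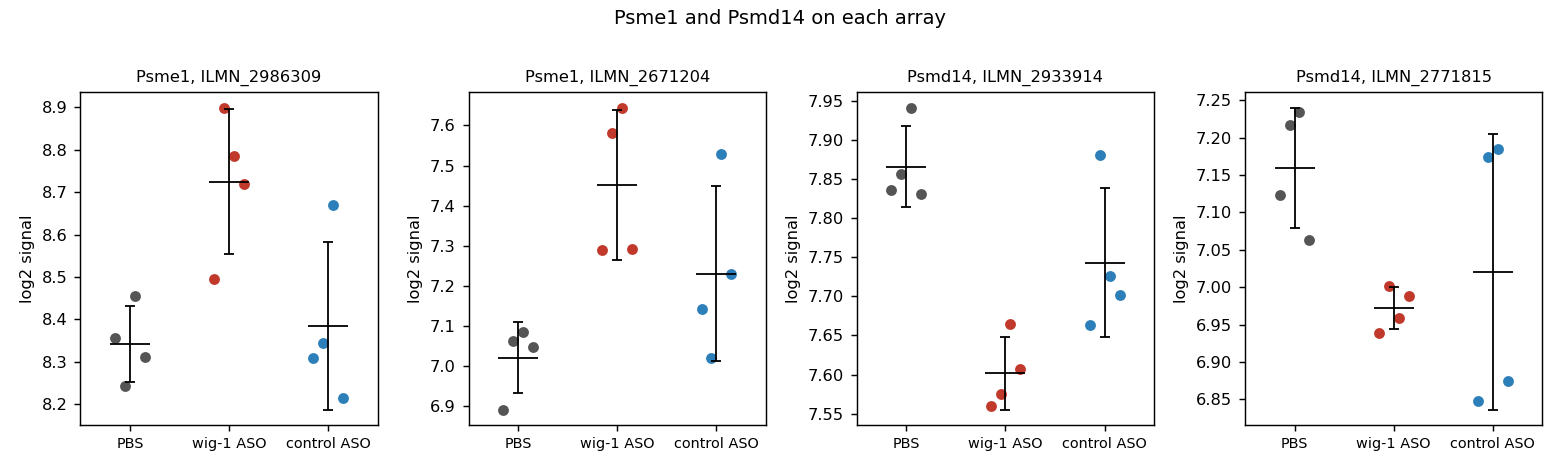
Log2 signal (vertical axes, which do not start at 0) of both kept probes of Psme1 and of Psmd14 on each array, by group (horizontal axes), with the mean and SD of 4 arrays in black. The wig-1 ASO points lie above all PBS points for Psme1 and below all PBS points for Psmd14 on both probes, and the control ASO points overlap with at least 1 of the other groups in each panel.

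No activator gene was called. Psme1, which encodes the alpha subunit of PA28, had log2 signals of 8.36, 8.24, 8.46 and 8.31 with PBS, 8.50, 8.90, 8.79 and 8.72 with wig-1 ASO, and 8.31, 8.35, 8.67 and 8.22 with control ASO (probe ILMN_2986309). All wig-1 ASO arrays lay above all PBS arrays, and 1 control ASO array lay above the lowest of them. The log2 change was 0.38 (SE 0.12, 95% interval 0.12 to 0.65, limma adjusted p = 0.123, exact permutation p = 0.0286) against PBS. Relative to control ASO it was 0.34 (SE 0.12, limma adjusted p = 0.237).
The second probe of Psme1 (ILMN_2671204) had log2 signals of 6.89, 7.06, 7.09 and 7.05 with PBS, 7.29, 7.58, 7.64 and 7.29 with wig-1 ASO, and 7.14, 7.02, 7.53 and 7.23 with control ASO. It was higher by 0.43 (SE 0.13, adjusted p = 0.102 from limma) than PBS, and by 0.22 (adjusted p = 0.501) than control ASO. Over the 12 arrays the 2 probes correlated with r = 0.70 after the group means were removed, a description over probes of 1 transcript. With a trended and robust prior in limma both probes passed, at adjusted p of 0.0433 and 0.0422, and without wig-1 ASO replicate 1 the brighter one did, at 0.46 and 0.0485.

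Psme2, the beta subunit of PA28 and the partner of Psme1 in the same ring, changed by 0.03 (SE 0.19, 95% interval -0.38 to 0.45, adjusted p = 0.958 from limma), with log2 signals of 5.63, 5.03, 5.64 and 5.76 with PBS and 5.90, 5.13, 5.67 and 5.49 with wig-1 ASO. Its interval holds the change of Psme1 as well as 0. Psme3, the nuclear activator PA28 gamma, had log2 signals of 8.85, 8.73, 8.54 and 8.77 with PBS, 8.47, 8.55, 8.49 and 8.61 with wig-1 ASO, and 8.64, 8.58, 8.42 and 8.29 with control ASO. It was low in both oligonucleotide groups, by -0.19 (adjusted p = 0.370) and -0.24 (adjusted p = 0.715 from limma), with overlap in each. These comparisons share the PBS arrays. Psme4, which encodes the activator PA200, changed by -0.06 in wig-1 ASO against PBS.

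The assembly chaperones were measured through 6 genes without a call. Psmg3, a chaperone of the core, had log2 signals of 6.16, 5.83, 6.17 and 6.07 with PBS, 6.38, 6.15, 6.41 and 6.46 with wig-1 ASO, and 5.96, 6.42, 6.43 and 5.98 with control ASO. The wig-1 ASO arrays were mostly above PBS, with 1 inside its range (0.29, SE 0.14, adjusted p = 0.308 from limma). Psmg1 and Psmg2 changed by 0.05 and 0.04, and the 3 kept probes of Psmg2 disagreed in sign. Psmd10, the chaperone gankyrin of the base, changed by 0.12 (SE 0.11, adjusted p = 0.633 from limma), and Psmd9 and Psmd5, both dim, by 0.22 and -0.05. Psme3ip1 and Psmc3ip, which the symbols take in although they encode no subunit, were at 0.10 and 0.06.

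The 3 catalytic genes were set beside the immunoproteasome genes whose products take their places. In wig-1 ASO against PBS, Psmb8 and Psmb9 rose, while Psmb10, Psmb5, Psmb6 and Psmb7 did not pass the test. Psmb8, the counterpart of Psmb5, had log2 signals of 4.66, 4.44, 4.65 and 4.43 with PBS, 5.07, 6.14, 6.01 and 5.58 with wig-1 ASO, and 4.59, 4.64, 4.84 and 4.54 with control ASO, a change from PBS of 1.16 (SE 0.20, limma adjusted p = 0.0143) and from control ASO of 1.05 (SE 0.20, adjusted p = 0.042). All wig-1 ASO arrays were above all others, replicate 1 being the lowest of them. The probe of Psmb8 was dim, with a PBS mean of 4.54. With 16 added to every signal the changes of Psmb8 were 0.80 and 0.73 (limma adjusted p = 0.00279 and 0.00867).
Psmb9, the counterpart of Psmb6, had log2 signals of 4.08, 4.57, 4.21 and 3.96 with PBS, 4.94, 5.41, 4.85 and 4.72 with wig-1 ASO, and 4.37, 3.86, 4.37 and 4.13 with control ASO. It rose by 0.78 (SE 0.18, adjusted p = 0.0440 from limma) against PBS and was 0.80 above control ASO (adjusted p = 0.0703). With 16 added to every signal these differences were 0.47 and 0.48, and both passed (limma adjusted p = 0.0248 and 0.0349). Psmb10, the counterpart of Psmb7, had log2 signals of 8.56, 8.43, 8.48 and 8.47 with PBS and 8.67, 8.54, 8.40 and 8.34 with wig-1 ASO, a change of 0.00 (SE 0.09, 95% interval -0.20 to 0.21, adjusted p = 0.997 from limma). Psmb8 stayed called against PBS when each of the 12 arrays was left out in turn. Psmb9 stayed called against PBS in 3 of 12 such fits, those without PBS replicate 2, wig-1 ASO replicate 1 and control ASO replicate 2 (adjusted p 0.0458 to 0.117 over the 12), and Psmb8 against control ASO in 1 of 12, that without wig-1 ASO replicate 1 (0.0022 to 0.121).

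The difference within each pair was tested on the log2 ratio of its 2 genes per array, in which the scale of the array cancels. Relative to the PBS mean, Psmb8 minus Psmb5 was 0.16, 0.01, 0.19 and -0.37 with PBS, 0.50, 1.57, 1.03 and 1.01 with wig-1 ASO, and 0.41, 0.11, -0.05 and -0.39 with control ASO. The wig-1 ASO values were above all others, by a mean of 1.03 against PBS and 1.005 against control ASO (both exact permutation p = 0.0286, 0.0643 after adjustment over the 9 pair comparisons). Psmb9 minus Psmb6 was -0.02, 0.34, -0.15 and -0.17 with PBS, 0.84, 1.14, 0.62 and 0.41 with wig-1 ASO, and 0.31, -0.30, 0.23 and -0.12 with control ASO. It was again above all others, by 0.75 and 0.73 (both exact permutation p = 0.0286, adjusted 0.0643). Psmb10 minus Psmb7 changed by -0.04 against PBS (exact permutation p = 0.771) and -0.09 against control ASO (exact permutation p = 0.514). Control ASO against PBS gave 0.02, 0.03 and 0.06 for the 3 pairs. With 4 arrays against 4, 0.0286 is the smallest two-sided p, and no adjusted value passed 0.05.

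**Figure D3:**
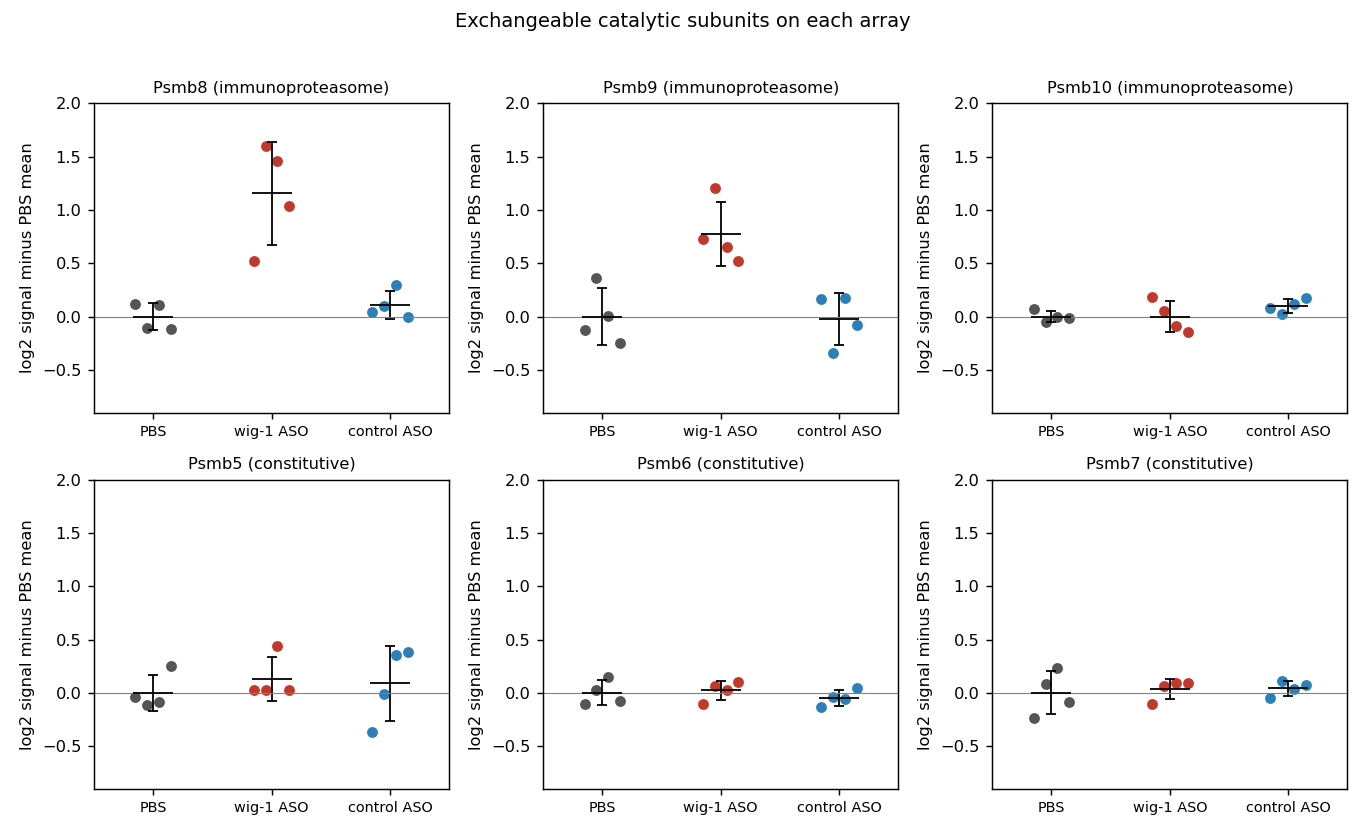
Log2 signal minus the PBS mean of the gene (vertical axes) on each array, by group (horizontal axes), for the immunoproteasome genes in the upper row and their constitutive counterparts in the lower row, with the mean and SD of 4 arrays in black. The wig-1 ASO points of Psmb8 and Psmb9 lie above all PBS and control ASO points, and those of Psmb10, Psmb5, Psmb6 and Psmb7 overlap with both.

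No gene that works with the proteasome under another name was called. Of 21 listed partners, 11 had a kept probe, none was called, and their median log2 change in wig-1 ASO against PBS was -0.02. Vcp, the segregase that extracts ubiquitinated proteins, was at 0.23 (adjusted p = 0.285), Sem1, the smallest lid subunit, at 0.15 (adjusted p = 0.344), and Pomp, the maturation chaperone of the core, at 0.17 (adjusted p = 0.521, all limma). Nfe2l1 was at -0.06 (adjusted p = 0.80 from limma). Of 6 ubiquitin genes and activating enzymes, Uba6 alone had a kept probe, at 0.02. By contrast, 6 of 8 measured interferon-regulated genes of antigen presentation were called higher in wig-1 ASO against PBS, with a median of 0.96. Against control ASO 1 of 8 was called, though all 8 were higher, with a median of 0.84. Leaving out wig-1 ASO replicate 4 lowered the 6 to 3. Against control ASO the 1 was lost in 9 of the 12 fits with an array left out, and became 6 without wig-1 ASO replicate 1. They included H2-D1, a class I heavy chain (1.33, adjusted p = 0.0106), Irf9, part of the interferon response factor (1.01, adjusted p = 0.0117), and Ifit3, an interferon-induced gene (0.92, adjusted p = 0.0145, all limma).

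The proteasome values lie beside large shifts in markers of cell types. In bulk tissue, fewer cells of a type and less RNA per cell cannot be told apart. In wig-1 ASO against PBS, 8 of 11 measured microglia and macrophage markers rose, and their summed linear signal was 1801 to 2058 with PBS, 3414 to 6952 with wig-1 ASO and 1923 to 3137 with control ASO. Of 8 reactive astrocyte markers 7 rose, with sums of 1704 to 2171, 3267 to 9732 and 1867 to 2908. Leaving out wig-1 ASO replicate 2 lowered the 7 to 1, and the 8 microglia calls were 7 to 10 over the 12 arrays left out. In control ASO against PBS the medians of these 2 lists were 0.39 and 0.40. Against control ASO all their measured markers were higher with wig-1 ASO, with medians of 1.38 and 1.22, beside 1.65 and 1.70 against PBS. Against control ASO 5 of 11 microglia and 3 of 8 reactive astrocyte markers were called. These counts became 0 in 8 and 11 of the 12 fits with an array left out, and without wig-1 ASO replicate 1 they became 10 and 6. Of 10 medium spiny neuron markers none was called and none was higher in wig-1 ASO against PBS, with a median of -0.62. Their sums were 6559 to 8970 with PBS, 3862 to 7827 with wig-1 ASO and 5051 to 6790 with control ASO. In control ASO against PBS none was higher either, with a median of -0.37. The median of wig-1 ASO against control ASO was -0.25, with 1 marker higher. The 8 pan-neuronal markers had a median of -0.06. None of these markers was at 0. Wig-1 ASO replicate 1 had the lowest microglia sum and the lowest interferon list sum of its group, 3414 and 1885. It also had the lowest values of Psmb8 and of Psme1 on its brighter probe in that group. Psmb9 did not follow this order, with 4.94 on replicate 1 and 5.41, 4.85 and 4.72 on replicates 2, 3 and 4. Psmb10 was highest on replicate 1, at 8.67. The part of these cell types in the values of Psme1, Psmb8 and Psmb9 was not tested. Choroid plexus markers varied from array to array, with sums of 194 to 13279 within the wig-1 ASO group.

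The level of the whole set varied little between groups. The median of the 38 genes, relative to their PBS means, was -0.01, 0.00, 0.09 and 0.01 on the PBS arrays, 0.02, 0.04, 0.07 and 0.06 on the wig-1 ASO arrays, and -0.07, 0.01, 0.04 and 0.07 on the control ASO arrays. All groups overlapped, and the lowest value was on control ASO replicate 1 and the highest on PBS replicate 3. Each wig-1 ASO value was above those of PBS replicates 1, 2 and 4 and below that of PBS replicate 3. Within the core, the alpha and beta genes had a median of -0.10 on PBS replicate 1 and 0.11 on PBS replicate 3, which received the same vehicle.

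**Figure D4:**
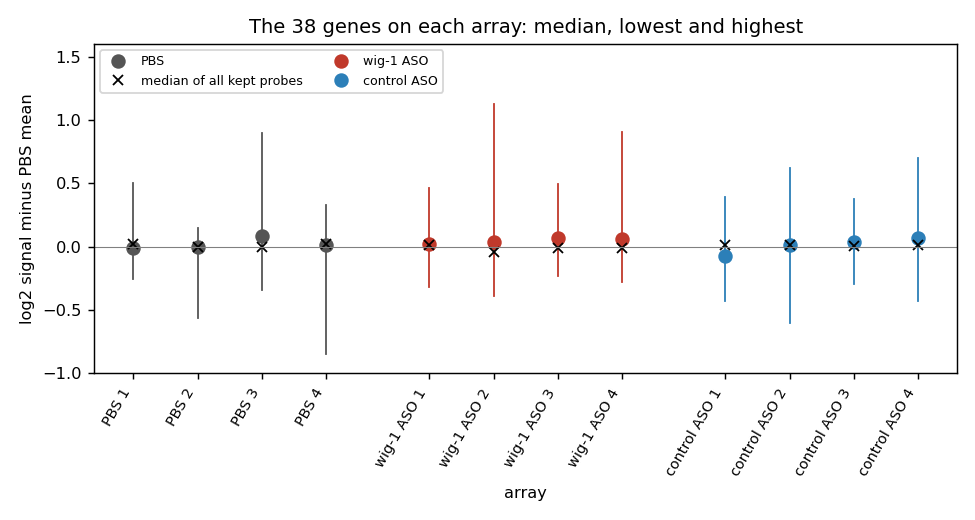
Median (large points) and range (lines) of the log2 signal minus the PBS mean over the 38 genes on each of the 12 arrays (horizontal axis), with the median of all kept probes as crosses. The medians run from -0.07 to 0.09 and the 3 groups overlap.

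Some genes moved together across arrays after the group means were removed. Over the 12 arrays, the highest values were r = 0.914 for Psmb4 and Psmd5 and r = 0.905 for Psmb6 and Psmb7, and the lowest was r = -0.92 for Psmb7 and Psmd4. On PBS replicate 3, Psmb7 was the highest of all 12 arrays, at 10.28, and Psmd4 the lowest, at 9.95. These values describe the extremes among all pairs of the 38 genes, share the same arrays and their normalization, and differ between probes of a gene. The 2 kept probes of Psmc5 had r = -0.62, against 0.75 for those of Psmb6 and 0.67 for those of Psmd14.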

How the data were processed

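Total RNA of 12 striata, 4 per group, was hybridized to Illumina MouseWG-6 v2 arrays. The deposited signal intensities were already quantile normalized by the authors, since all 12 arrays hold 1 set of values, although the table is called non-normalized. The authors also deposited a detection p-value per probe and array, and log2 values equal to log2 of these intensities within 5.58e-09. Per the methods of the study, lumi and siggenes were used, with steps not given in the sources used here. Here log2 intensities were used without further normalization.

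Probes were named from the platform table, where 34885 of 45281 have 1 symbol and 10396 have several or none. A probe was kept at detection p under 0.01 on at least 4 arrays. Groups were compared in limma 3.58.1 (R 4.3.3) over all 12 arrays, with 9 residual degrees of freedom and Benjamini-Hochberg adjustment over 17188 probes. Exact permutation tests were two-sided. Where 4 arrays do not overlap with 4 others the exact permutation p is always 0.0286, so that it only repeats the lack of overlap. The fit was tested on simulated data. The members and lists were chosen with earlier results of these data known. The limma p-values set a group difference against the spread between arrays, and the permutation p-values count arrangements of the arrays. The number of arrays limits the precision. Members were named by a rule: the smallest adjusted p in each role, the catalytic genes, and genes whose probes disagree. Psma2, Psma4, Psma5, Psmb2, Psmb3, Psmb4, Psmc1, Psmc5, Psmd4, Psmd5, Psmd6, Psmd8, Psmd9, Psmd11, Psmd13, Psme2, Psme3, Psme4, Psmg1, Psmc3ip and Nfe2l1 were added after their values were seen. Lists not given above are those of astrocytes, oligodendrocytes, endothelial cells, red blood cells and tissue around the striatum. Of the first 3 lists 0 of 10, 0 of 8 and 0 of 7 genes were called in wig-1 ASO against PBS. Their median log2 changes were 0.17, 0.21 and 0.36. In the same comparison 3 of 5 red blood cell genes fell and 1 of 9 genes of neighbouring regions rose. Of 7 choroid plexus genes 0 were called, with a median of 0.57, and of 1.52 in control ASO against PBS. A missing call in these lists does not show a lack of change. The alternatives were other filters, scalings, offsets, priors, weights, tests and probe averages, and arrays left out.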

Additional observations from a re-analysis of the deposited data

Results flagged for a closer look

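Within each group of 4 arrays, the highest and lowest value of each of the 38 genes and of Zmat3, Psmb8, Psmb9 and Psmb10 was compared with the nearest other value. A far array was found in 8 of 126 such groups, where chance gives about 1 in 20. With wig-1 ASO, Psmb7 on replicate 1 lay below the rest (log2 9.95), as did Psmd11 on replicate 1 (5.85), while Psmb5 on replicate 3 (7.52) and Psmd5 on replicate 3 (4.48) lay above. With control ASO, Psmd13 on replicate 4 (9.60), Psmd4 on replicate 1 (10.18) and Psme4 on replicate 1 (7.46) lay above the rest, and Psme2 on replicate 1 (5.32) lay below.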

How the results depend on the processing

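The alternatives left 0 proteasome probes called in every comparison, except 2 probes, both of Psme1, with a trended and robust prior and 1 without wig-1 ASO replicate 1 in wig-1 ASO against PBS (0 to 1 over the arrays left out). The median change of the 38 genes stayed above 0 under every alternative, from 0.04 to 0.07 in wig-1 ASO against PBS, 0.00 to 0.05 against control ASO and 0.00 to 0.07 in control ASO against PBS. Over all probes, the 577 and 162 calls of wig-1 ASO against PBS and against control ASO were 257 and 22 with no filter on detection, 913 and 427 with 16 added to every signal, 120 and 7 with only the 8 arrays compared, 946 and 396 with the trended and robust prior, 908 and 432 with array weights, and 233 and 23 with the replicate block. With detection on all 4 arrays of a group the second was 248. With arrays left out they were 156 to 1234 and 5 to 545, and the 0 of control ASO against PBS became 0 to 1, and 1 with the replicate block. The fold and p limits of the study gave 417, 227 and 0. Same-numbered arrays correlated by -0.14 to 0.13 in their deviations, so that the numbers do not pair them, and the block changed no call among the 38 genes.

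The pair difference of Psmb10 and Psmb7 against control ASO moved to -0.201 without wig-1 ASO replicate 1, with -0.201 to -0.0259 over the arrays left out. Some small log2 changes in wig-1 ASO against PBS turned sign. With single arrays left out they ran from -0.0128 to 0.0725 for Psmb6, from -0.0405 to 0.114 for Psmb7, from -0.0286 to 0.0823 for Psmd7, from -0.0107 to 0.113 for Psmg2 and from -0.0594 to 0.0493 for Psmb10. Psmd7 was at -0.14 as the mean of its probes, and Psmb10 at -0.0166 with array weights. The cause was not tested. Psmb9 against PBS lost its call with no filter (adjusted p = 0.0944 from limma), with only the 8 arrays (0.0987), with array weights (0.0570) and with the replicate block (0.0841), Psmb8 against control ASO with no filter (0.0845), the 8 arrays (0.121) and the block (0.0863), and Psmb8 against PBS only with the 8 arrays (0.0625). Psmb9 against control ASO gained a call with 16 added (0.0349) and with array weights (0.0415). Dim probes such as those of Psmd2, Psmd5 and Psmd9 lie near background and have the widest intervals.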
